A study of Homo sapiens with 9 samples.

Results

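Cells make glutathione, a small peptide thiol, and thioredoxin, a small thiol protein, to reduce peroxides and oxidised proteins. The 10 genes of these systems described here are GCLC, GCLM, GSR, GSTP1, GSTK1, GSTO1, GPX1, GPX4, TXN and TXNRD1. They are a named list, and GSTP1 on it was chosen by 1 measured result: it was lower under the siRNA2 label than under NTC with the replicate number as a block. These 10 genes are among 58096 gene identifiers in the count tables, of which 18554 were abundant enough to test, and all 10 passed that filter on low counts.

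The study sequenced poly(A)-selected RNA of ALL-SIL, an established human cell line from a T-cell acute lymphoblastic leukaemia that carries an active TLX1, a homeobox transcription factor and oncogene. By electroporation the cells took up a siRNA, a short double-stranded RNA that directs cleavage of a matching mRNA. The labels name TLX1 siRNA1, TLX1 siRNA2 and an siRNA called NTC, with 3 libraries (replicates 1 to 3) under each, and the question was what a knockdown of TLX1 does to gene expression. The meaning of NTC, the sequence and dose of each siRNA and the harvest time were not given in the sources used here. All 9 libraries come from 1 cell line and all were electroporated, so no untreated cells are compared. Nothing in the labels says that replicates came from separate cultures. The p-values therefore measure the spread among these libraries, which may be technical.

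The libraries held 58305492 to 99524663 gene counts, and the 10 genes took 0.136% to 0.155% of them. Levels are in CPM, counts normalised to library size and then scaled by normalization factors. The target, TLX1, was lower under neither siRNA label, and stood at 387 to 458 CPM in the libraries labelled siRNA1, at 179 to 231 CPM in those labelled siRNA2 and at 167 to 184 CPM in those labelled NTC. It was 2.34-fold higher under the siRNA1 label than under NTC (edgeR quasi-likelihood test, adjusted p = 0.000449) and 1.14-fold higher under siRNA2, which did not pass (edgeR adjusted p = 1). Neither label shows a knockdown in these counts, and whether labels were exchanged or the knockdown failed was not tested, so each direction below is a direction between labels and not between known TLX1 doses. TLX3, another homeobox gene, had 33 to 54 counts in the 3 libraries of replicate number 1 and 0 in the other 6. The T-lineage label held on its markers: 16 of 17 averaged above 1 CPM, with sums of 2580 to 2780 CPM under NTC, 2540 to 2630 under siRNA1 and 2470 to 2760 under siRNA2. The 9 myeloid markers summed to 1.33 CPM at most, with S100A8 and S100A9 at 0, and the 9 epithelial and fibroblast markers to 0.22 CPM at most, with KRT18, KRT19 and DCN at 0. The 8 B cell markers summed to 25.8 to 32.7 CPM under NTC, 22.9 to 27.7 under siRNA1 and 19.9 to 27.3 under siRNA2, and the 8 erythroid markers to 8.88 to 11.2 CPM in all, nearly all of it EPOR, with HBA1 at 0. In bulk RNA, fewer cells of a type and less RNA per cell cannot be told apart.

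As background, glutathione is built in a first, rate-limiting step by glutamate-cysteine ligase, an enzyme of a catalytic subunit (GCLC) and a modifier subunit (GCLM). Glutathione transferases join it to reactive compounds, glutathione peroxidases spend it on peroxides, and glutathione reductase (GSR) regenerates it from its oxidised form with NADPH. Thioredoxin (TXN) is regenerated in the same way by thioredoxin reductase (TXNRD1) and supplies electrons to peroxiredoxins and to ribonucleotide reductase. Many of these genes are targets of the transcription factor NRF2 (gene NFE2L2), which binds antioxidant response elements as a dimer with small MAF proteins. KEAP1 marks NRF2 for degradation, and the BACH proteins compete with it for the same elements as repressors.

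The core of the antioxidant response element is written TGACNNNGC, and it was searched on both strands of RefSeq promoter windows (GRCh38.p14) that run from 250 bases before to 50 after each annotated start. Windows were found for 9 of the 10 genes, and 4 of these 9 hold the word, against 16.1% of the 27305 genes with a window. By window the counts were 5 of 12 (41.7%) and 13.3% of 35116, and 8 of 30 windows (26.7%) of other NRF2 target genes held it. The matches are shown because they are what 4 of these genes share at their start sites, with the word in capitals, 10 bases on each side in lower case, all 5′ to 3′:
GSTP1, 66 bases before the start, chr11:67583736-67583764, plus strand: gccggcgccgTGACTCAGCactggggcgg
GCLM, 34 bases before, chr1:93909446-93909474, plus strand, opposite to the gene: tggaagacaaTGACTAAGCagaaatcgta
GSTO1, 226 bases before, chr10:104254656-104254684, plus strand: ggcggagggaTGACTGAGCatttataact
GSTO1, 161 bases before, chr10:104254721-104254749, plus strand: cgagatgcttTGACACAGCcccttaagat
TXNRD1, 99 bases before, chr12:104215670-104215698, plus strand: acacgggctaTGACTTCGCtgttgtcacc
TXNRD1, 8 bases before, chr12:104215761-104215789, minus strand: ctgtgggaacTGACGGAGCcgaaggacgc
TXNRD1, 102 bases before another start, chr12:104286920-104286948, minus strand: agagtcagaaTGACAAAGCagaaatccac
The word can overlap TGACTCA, the AP-1 site, and the GSTP1 match contains it. No binding was measured here, and a match is only a description of the letters in the window.

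Counts divided by exon length (TPM, which scales each library to the same total after division by the exon length of GENCODE 29) give the order of the levels between genes. GSTP1, the pi-class transferase, led with a mean of 709 ± 108 TPM (SD, n = 9 libraries), and only 0.666% of tested genes were above it. TXN followed at 628 ± 53.2 TPM, and the ranges of the 2 genes overlap. GPX4, the peroxidase that reduces lipid peroxides in membranes, stood at 270 ± 25.9 TPM, apart from its neighbours on both sides.

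A group of 4 genes came next: GSR at 169 ± 25.2 TPM, GSTO1 at 150 ± 17.7 TPM, TXNRD1 at 146 ± 15.3 TPM and GPX1 at 137 ± 8.85 TPM. Each of them overlaps the next in range, so their order is not beyond their spread. GSTK1, a transferase of mitochondria and peroxisomes, was lower at 82.3 ± 3.94 TPM, and its range meets neither neighbour. The ligase subunits stood lowest and far from each other, GCLM at 34.3 ± 3.97 TPM and GCLC at 2.80 ± 0.169 TPM, with 66.2% of tested genes above GCLC. These SDs are over all 9 libraries and so include differences between labels. They do not cover the exon lengths, which sum all annotated exons of a gene whether or not these cells use them. The order depends on those lengths: in mean CPM GSTK1 (96.5) stood above GSTO1 (69.9) and GPX1 (54.4), and TXNRD1 (270) above TXN (198).

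**Figure D1:**
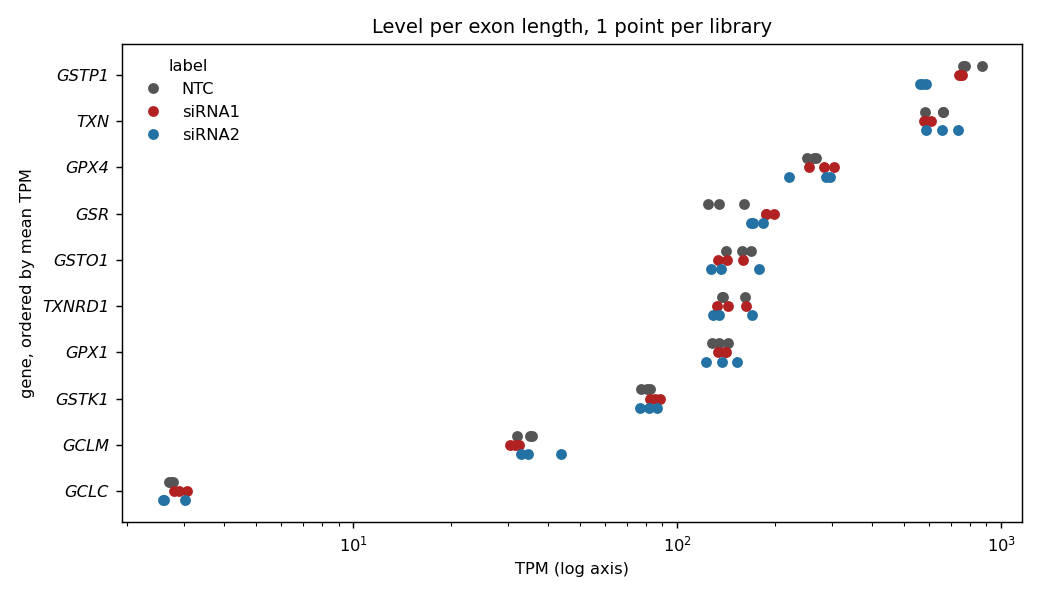
Level of each of the 10 genes in TPM (log axis) in the 9 libraries, 1 point per library, coloured by siRNA label. GSTP1 and TXN lie highest, GCLC lowest, and the 3 NTC and 3 siRNA1 points of GSTP1 lie above its 3 siRNA2 points.

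The catalytic subunit GCLC (chromosome 6, 53497341 to 53616970, minus strand, GRCh38 as are all positions here) had 6.92, 6.25 and 6.54 CPM in NTC replicates 1 to 3, 6.98, 7.56 and 6.62 under siRNA1, and 6.30, 6.35 and 6.73 under siRNA2. The 3 labels overlap. Part of its exons (6.12%) is shared with the lncRNA AL033397.1 and a few bases with the antisense gene AL033397.2. AL033397.1 lies on the same strand as GCLC, so reads in the shared bases cannot be assigned to GCLC alone even by counts that keep strand. AL033397.2 lies on the other strand, and counts that ignore strand cannot separate it either.

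The modifier subunit GCLM (chromosome 1, 93885205 to 93909456, minus strand) had 50.8, 51.3 and 52.6 CPM under NTC, 47.9, 48.7 and 46.4 under siRNA1, and 52.4, 50.8 and 61.2 under siRNA2. In CPM the siRNA1 libraries are the 3 lowest of the 9, without overlap with either other label. In TPM siRNA1 and NTC overlap, with siRNA1 replicate 3 at 32.4 and NTC replicate 1 at 32.0. The drop is small: the log2 difference from NTC was -0.11 ± 0.0847 (SE), which did not pass (edgeR adjusted p = 0.754), and that from siRNA2 was -0.20 ± 0.0848 (edgeR adjusted p = 0.437, unadjusted p = 0.0358). Per exon length, GCLM stood 12.5 ± 0.737 times (SD, n = 3) above GCLC under NTC, 10.8 ± 0.46 times under siRNA1 and 13.5 ± 0.902 times under siRNA2, and the siRNA1 ratios are the 3 lowest. That ratio was formed after the values were seen and carries no test. Its size depends on the exon lengths used, 5420 bases for GCLM and 8646 for GCLC.

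GSR (ENSG00000104687.12, chromosome 8), which keeps glutathione in its reduced form, was the member that differed between the siRNA1 and NTC labels. It had 137, 136 and 165 CPM under NTC, 204, 202 and 197 under siRNA1, and 181, 181 and 178 under siRNA2. Every siRNA1 library is above every siRNA2 library, and every siRNA2 library is above every NTC library. The means were 146 ± 16.5 CPM (SD, n = 3) under NTC, 201 ± 3.49 under siRNA1 and 180 ± 1.76 under siRNA2. NTC replicate 3 lies closest to the other labels, and the NTC libraries are spread more widely than the 6 others.

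GSR rose 1.38-fold under the siRNA1 label against NTC (log2 0.47 ± 0.0861 SE, edgeR adjusted p = 0.023). Within replicate numbers 1, 2 and 3 its log2 ratio was 0.579, 0.575 and 0.261, higher in 3 of 3. In this fit, which does not use the replicate number, the call does not survive the loss of any single siRNA1 library or of NTC replicate 1 or 2. Without siRNA1 replicates 1, 2 or 3 the edgeR adjusted p was 0.0918, 0.0809 and 0.0655. Without NTC replicates 1 and 2 it was 0.0971 and 0.116, and log2 lay between 0.42 and 0.48 over these settings. With all 9 libraries and the replicate number as a block the edgeR adjusted p was 4.82e-05. Between siRNA1 and siRNA2 the difference in GSR was 0.16 ± 0.086 (log2, SE) and did not pass (edgeR adjusted p = 0.591).

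Among the transferases, GSTP1 (ENSG00000084207.15, chromosome 11, 67583595 to 67586656, plus strand), which conjugates glutathione to electrophiles and drugs, had 433, 392 and 452 CPM under NTC, 419, 411 and 374 under siRNA1, and 314, 306 and 282 under siRNA2. All 3 siRNA2 libraries lie below the other 6, while NTC and siRNA1 overlap. Its mean was 426 ± 30.3 CPM (SD, n = 3) under NTC, 401 ± 24.3 under siRNA1 and 300.4 ± 16.8 under siRNA2. The siRNA2 value is 1.42 times lower than NTC (log2 -0.50 ± 0.0855 SE), and the ratios within replicate numbers 1 to 3 were -0.464, -0.359 and -0.682 (log2). This is the contrast that put GSTP1 on the list, so it is a description with no test. The siRNA1 value exceeded that of siRNA2 by 0.42 ± 0.0854 (log2, SE), which rests on the same siRNA2 libraries and is given without a test too. Between siRNA1 and NTC, which shares the NTC libraries with the contrast of the choice, GSTP1 differed by -0.08 ± 0.0853 (log2, SE), within the spread of the libraries.

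GSTK1 (chromosome 7, 143244093 to 143270854, plus strand) had 95.2, 93.4 and 92.6 CPM under NTC, 101, 107 and 95.0 under siRNA1, and 96.5, 104 and 83.7 under siRNA2. GSTO1 (chromosome 10, 104235356 to 104267459, plus strand), an omega-class enzyme that works by thiol exchange, had 70.2, 72.1 and 77.8 CPM under NTC, 69.9, 64.6 and 71.3 under siRNA1, and 64.2, 61.0 and 78.1 under siRNA2. For both genes the labels overlap, and the siRNA2 libraries spread most, over a range that holds the lowest library of all 9.

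GPX1 (chromosome 3, 49357171 to 49358600, minus strand), the main cytosolic peroxidase, had 53.5, 51.8 and 55.7 CPM under NTC, 55.2, 57.6 and 53.1 under siRNA1, and 54.8, 62.3 and 45.3 under siRNA2. GPX4 (chromosome 19, 1103926 to 1106791, plus strand) had 158, 136 and 145 CPM under NTC, 178, 163 and 136 under siRNA1, and 167, 165 and 115 under siRNA2. In both genes siRNA2 replicate 3 is the lowest of the 9 libraries. Both are selenoproteins, whose mRNAs carry a stop codon read as selenocysteine. GENCODE 29 lists GPX1 as a polymorphic pseudogene, and its processed copy GPX1P1 held 3.53% as many counts as GPX1, which makes its level less certain.

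TXN (chromosome 9, 110243811 to 110256640, minus strand) had 194, 203 and 205 CPM under NTC, 192, 199 and 177 under siRNA1, and 187, 214 and 216 under siRNA2. TXNRD1 (chromosome 12, 104215779 to 104350305, plus strand), also a selenoprotein, had 272, 248 and 295 CPM under NTC, 279, 254 and 289 under siRNA1, and 253, 246 and 294 under siRNA2. The labels overlap for both, and TXNRD1 follows the replicate number instead: replicate 2 is the lowest and replicate 3 the highest under each of the 3 labels.

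**Figure D2:**
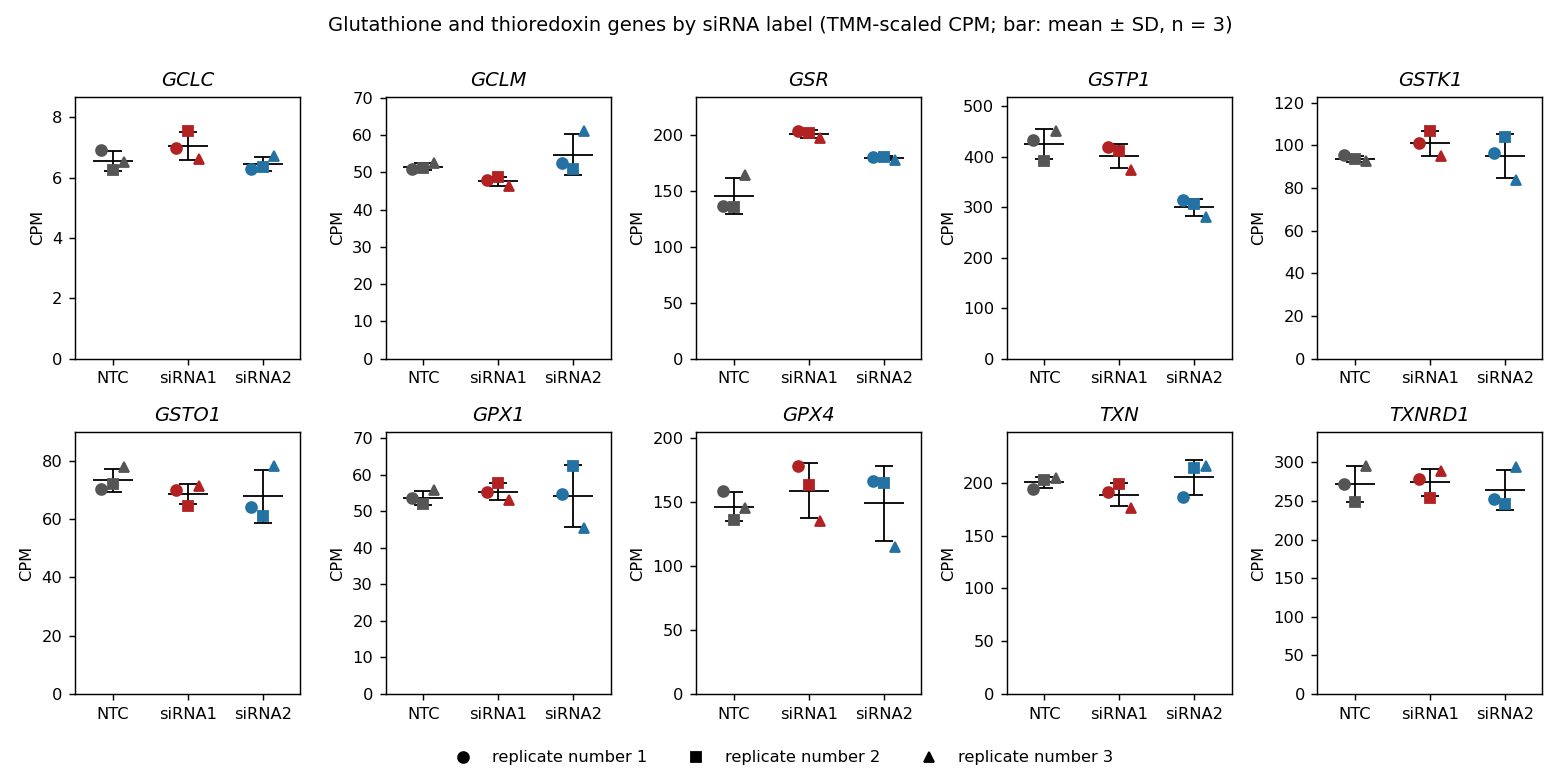
Scaled CPM of each gene in the 9 libraries by siRNA label, with the replicate number as the marker shape and the mean ± SD (n = 3) as a bar. GSR is lowest under NTC and highest under siRNA1, GSTP1 is lowest under siRNA2, and TXNRD1 is highest in replicate 3 under each label.

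Against NTC, then, 1 of the 10 genes (10%) passed under the siRNA1 label, GSR, beside 1.28% of all tested genes (238 of 18554; 0.469% higher and 0.814% lower). The other 9 had log2 differences between -0.11 (GCLM) and 0.12 (GPX4) with edgeR adjusted p from 0.754 (GCLM) to 0.987 (TXNRD1). With the replicate block it was again GSR alone, beside 11.4% of all tested genes (2117), which is close to the 10% of the members. In CPM the labels did not overlap for 2 of the 10, GSR and GCLM, beside 15.8% of all tested genes, and in TPM GCLM overlapped. Of the 10 genes 6 lay above 0 and 4 below, with a median log2 difference of 0.0276, beside 0.00647 over all genes. The 10 genes did not share a direction.

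Between the siRNA1 and siRNA2 labels, leaving out GSTP1, 0 of 9 genes passed, beside 1.08% of all tested genes (201; 0.345% higher and 0.738% lower under siRNA1), and 0 of 9 with the replicate block, beside 10.6% (1958). At an unadjusted p under 0.05 in edgeR there was 1 of 9, GCLM, beside 10% of all tested genes (1863), so nothing is read from it. The labels did not overlap for 2 of 9 (22.2%), GCLM lower and GSR higher under siRNA1, beside 14.4% of all tested genes. The siRNA1 libraries enter both comparisons, so the values for GCLM and GSR are not independent of those against NTC.

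Under the siRNA2 label against NTC, the contrast used by the rule, the values are descriptions. Apart from GSTP1, GSR stood 1.24-fold higher (log2 0.30 ± 0.0861 SE), with 0.402, 0.417 and 0.111 within replicate numbers 1 to 3. The remaining 8 genes lay between -0.11 (GSTO1) and 0.09 (GCLM) on the log2 scale. The labels did not overlap for GSTP1, which was chosen for this difference, and for GSR; the share among all tested genes was 5.58%, and nothing is read from it here. The choice of GSTP1 rests on a threshold in the fit with the replicate block, which 28 genes pass (0.151%), GSTP1 among them by choice. In that fit GSTP1 stood at log2 -0.50 ± 0.0679 (SE) and GSR at 0.31 ± 0.0691, both given without a test. Without the block 0 of 18554 genes passed in edgeR, 392 had an unadjusted p under 0.05, and DESeq2 called 4.

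**Figure D3:**
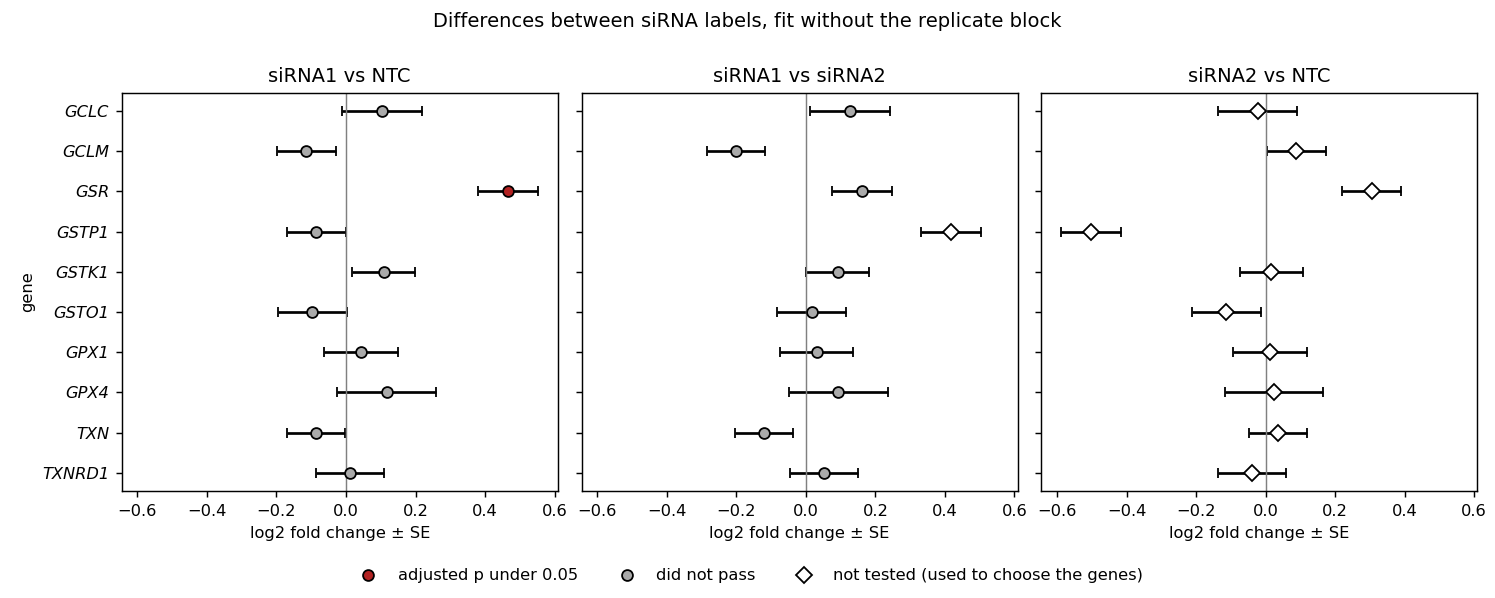
Log2 fold change ± SE of each gene in the 3 comparisons of labels, from the edgeR fit without the block, with open diamonds for values that the choice of the genes used and that carry no test. The red point is GSR, at 0.47 in siRNA1 against NTC. GSTP1 lies near 0 in that panel and at -0.50 in siRNA2 against NTC.

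The replicate number is balanced against the labels and was tested with the label in the model. It passed for 3 of the 10 genes (30%), beside 35.8% of all tested genes (6650), so these genes follow it about as often as genes in general. GPX4 averaged 168, 155 and 132 CPM in numbers 1, 2 and 3 (edgeR adjusted p = 0.00661), TXNRD1 268, 249 and 293 CPM (edgeR adjusted p = 0.0142), and GSTO1 68.1, 65.9 and 75.7 CPM (edgeR adjusted p = 0.0474). GPX4 did not pass without siRNA2 replicate 3 (edgeR adjusted p = 0.0695), nor TXNRD1 without siRNA1 replicate 2 (edgeR adjusted p = 0.0613). Only 1 of the 10 passed in each of these settings, beside 35.7% and 26.8% of all tested genes. GSTO1 did not pass in 11 of 16 alternatives, among them DESeq2 (adjusted p = 0.0501). What the numbers stand for is not given in the sources used here. Neither GSR nor GSTP1 passed for the number (edgeR adjusted p = 0.595 and 0.539).

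The pathway around these genes was read from 11 lists of redox genes, 204 names in all, of which 203 were in the tables and 162 were tested. Against NTC, 0 of 162 rose and 3 fell under the siRNA1 label (1.85%, beside 1.28% of all genes): MAFK, BACH2 and ABCC5. With the replicate block 10 rose (6.17%, beside 5.48% of all genes) and 15 fell (9.26%, beside 5.93%). Between siRNA1 and siRNA2, 0 were higher and 4 were lower under siRNA1 (2.47%, beside 1.08%): BACH2, BTRC, ABCC5 and NAMPT. The corresponding counts with the block were 12 higher (7.41%, beside 5.29%) and 15 lower (9.26%, beside 5.27%).

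MAFK, a small MAF protein that pairs with NRF2 and with the BACH repressors, had 67.4, 89.1 and 91.9 CPM under NTC, 45.1, 47.0 and 60.7 under siRNA1, and 79.8, 73.6 and 72.0 under siRNA2. BACH2, a repressor of antioxidant response elements with a further role in lymphocyte differentiation, had 23.5, 26.5 and 27.1 CPM under NTC, 14.4, 15.2 and 20.4 under siRNA1, and 27.8, 27.1 and 31.0 under siRNA2. ABCC5, an exporter of organic anions, had 235, 211 and 198 CPM under NTC, 155, 140 and 151 under siRNA1, and 251, 198 and 203 under siRNA2. For all 3 genes every siRNA1 library is below the other 6.

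On the log2 scale MAFK fell by 0.70 ± 0.135 (SE, edgeR adjusted p = 0.029), BACH2 fell by 0.62 ± 0.131 (edgeR adjusted p = 0.0425) and ABCC5 fell by 0.53 ± 0.104 (edgeR adjusted p = 0.0321) against NTC. Without NTC replicate 2, NTC replicate 3, siRNA1 replicate 1 or siRNA1 replicate 2 none of the 3 passed, and without NTC replicate 1 only MAFK did. ABCC5 also missed the threshold without siRNA1 replicate 3, and BACH2 without any 1 of the siRNA2 libraries. Against siRNA2, BACH2 differed by -0.78 ± 0.131 (edgeR adjusted p = 0.0161), BTRC, an adaptor of a ubiquitin ligase that can act on NRF2, by -0.46 ± 0.0811 (edgeR adjusted p = 0.0194), ABCC5 by -0.55 ± 0.104 (edgeR adjusted p = 0.0299) and NAMPT, an enzyme of NAD synthesis, by -0.39 ± 0.0801 (edgeR adjusted p = 0.0427). Without siRNA1 replicate 1 or 2 none of these 4 passed, and without siRNA1 replicate 3, siRNA2 replicate 1 or siRNA2 replicate 3 only 1 did. NAMPT missed the threshold without any 1 of the 9 libraries, and BTRC without siRNA2 replicate 2.

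The NRF2 regulators and the NRF2 target genes outside the 10 are counted here in siRNA1 against NTC with the block. No test compared the 2 lists. Both were chosen with earlier results of these data known, so their shares beside those of all genes are descriptions. Of 14 regulators tested, 0 rose and 5 fell (35.7%, beside 5.93% of all genes): MAFK, BACH2, BTRC, PGAM5 and RBX1. NFE2L2 itself had a log2 difference of 0.20 (edgeR adjusted p = 0.504, and 0.0804 with the block) and KEAP1 one of -0.03 (edgeR adjusted p = 0.96). Of 21 target genes tested, 7 rose (33.3%, beside 5.48%) and 2 fell, ABCC5 and NAMPT. Over all tested members, passing or not, the median log2 difference without the block was -0.02 for the regulators and 0.0516 for the targets, beside 0.00647 over all genes. The 7 are SLC7A11, the cystine transporter that feeds glutathione synthesis; the quinone reductases NQO1 and NQO2; the ferritin chains FTL and FTH1; AKR1C3; and EPHX1. None of these 7 passed without the block. In the same fit 9 of 17 T-lineage markers fell and 2 rose, and whether this has a part in the redox counts was not tested.

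The set of rising targets is led by SLC7A11, with 8.54, 10.1 and 10.9 CPM under NTC, 16.6, 14.8 and 14.6 under siRNA1, and 9.80, 9.32 and 13.5 under siRNA2. Its log2 difference from NTC was 0.63 ± 0.151 (edgeR adjusted p = 0.0754, and 0.000159 with the block). The 3 siRNA1 libraries are the highest of the 9, as they are for GSR. FTL and FTH1 have many near-identical copies, so their counts are uncertain.

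Leaving out the libraries of replicate number 1, those with TLX3 reads, 6 targets rose and 1 fell, and 0 regulators rose and 3 fell with the block (beside 2.97% of all genes higher and 3.1% lower). Without number 2, 3 targets rose and 2 fell, and 0 regulators rose and 4 fell (beside 4.76% and 4.5%). Without number 3, 5 targets rose and 2 fell, and 1 regulator rose and 4 fell (beside 3.93% and 4.57%). GSR passed with the block in each of these 3 settings. In siRNA1 against siRNA2 with the block and all 9 libraries, 6 of 21 targets were higher (28.6%) and 2 lower, and 0 of 14 regulators were higher and 4 lower (28.6%) under siRNA1, beside 5.29% of all genes higher and 5.27% lower. The targets higher and lower were 4 and 2 without number 1 (beside 2.91% and 2.49% of all genes). They were 5 and 3 without number 2 (beside 4.81% and 4.48%) and 2 and 2 without number 3 (beside 3.1% and 3.71%). In each of these settings 3 regulators were lower and 0 higher.

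**Figure D4:**
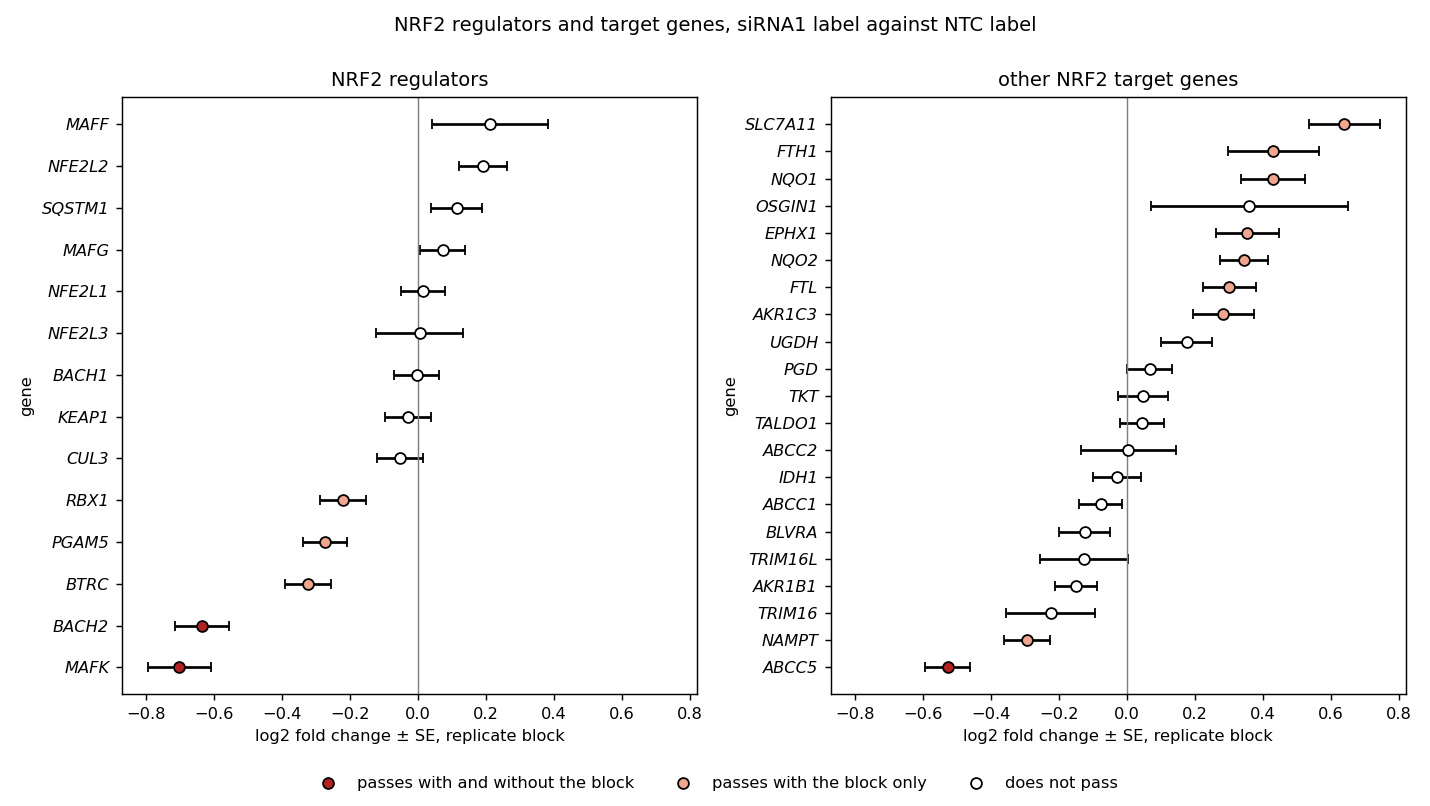
Log2 fold change ± SE of siRNA1 against NTC, with the replicate block, for the 14 tested NRF2 regulators (left) and the 21 tested NRF2 target genes outside the 10 described (right). Dark red points pass with and without the block (MAFK, BACH2 and ABCC5), light points with the block only, and open points in neither.

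Each of the remaining lists had at most 5 genes past the threshold in siRNA1 against NTC, all of them with the block alone, where 5.48% of all tested genes rose and 5.93% fell. No gene of selenocysteine synthesis and insertion passed with or without the block (0 of 11). With the block, GGACT, a cyclotransferase of gamma-glutamylamines, was 1 of 13 tested genes of glutathione synthesis and recycling to fall (edgeR adjusted p = 0.00161). GDAP1, a transferase-like protein of mitochondria, was 1 of 11 other transferases to rise (edgeR adjusted p = 0.00174). Superoxide dismutase SOD2 was 1 of 15 peroxidases, dismutases and catalase to fall (edgeR adjusted p = 0.0311), and TMX4, a thioredoxin-like membrane protein, 1 of 30 thioredoxin and glutaredoxin genes to fall (edgeR adjusted p = 0.00564). Of 16 ferroptosis genes 2 rose, NCOA4 and LPCAT3, and 3 fell with the block: the iron exporter SLC40A1, the transferrin receptor TFRC and the heat shock protein HSPB1. SLC7A11 was 1 of 8 tested genes of cystine and glycine supply to rise, and NADK2, a mitochondrial NAD kinase, 1 of 17 tested genes of NADPH supply to fall. SELENOI was 1 of 16 other selenoprotein genes to fall (edgeR adjusted p = 0.0313).

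The genes whose profile over the 9 libraries lay nearest to that of GSTP1 were WSB2, H1FX, PTGDR2, GIMAP1 and SHMT1, in this order. The measure was the root mean square difference of centred log2 CPM, which was 0.146 for WSB2 and 0.21 to 0.229 for the other 4, beside a median of 0.378 over 796 genes that vary at least as much as GSTP1 (SD 0.246). WSB2 averaged 44.0 CPM under NTC, 49.4 under siRNA1 and 35.4 under siRNA2, and SHMT1 96.2, 99.6 and 59.7. GSTP1 was chosen for its low siRNA2 level, so a low siRNA2 mean in its nearest genes follows from the choice. The same 9 libraries and their scaling underlie all of these profiles.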

How the data were processed

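Poly(A) RNA of 9 ALL-SIL libraries was measured in 3 labelled groups of 3. The values are deposited counts: whole reads per gene without normalization, as the values and the opening summary lines show; the unstranded column was used, since the kit does not mark strand per the labels' protocols. Per the submitters' processing notes the build was GRCh38; aligner and annotation were not given in the sources used here. Of 58096 identifiers 57492 matched GENCODE 29; the 604 others held 0.0317% of counts. Between 75.5% and 77.6% of reads fell in genes, and no 2 replicates agreed within sampling noise (chi-square per degree of freedom 35.3 to 59.3).

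The test was edgeR's quasi-likelihood test (edgeR 4.0.16, R 4.3.3) on all 9 libraries without a block, with TMM normalization (factors 0.975 to 1.04) and the filterByExpr filter set by group to a count of 10 and a total of 15. Benjamini-Hochberg adjustment ran over all 18554 genes, with a threshold of 0.05. SE is the size of the log2 fold change divided by the square root of the F statistic. TPM used the summed exon length of GENCODE 29, and log2 CPM a prior count of 2. Same-numbered libraries deviated together (correlation of deviations from the label means 0.383 to 0.623 in 9 pairs, against -0.445 to 0.0693 in 18 pairs of other numbers). The numbers thus pair the samples, a pairing that comes from these data and not from the labels. The reported fit leaves this pairing out and counts the spread between numbers as noise, so counts with the block are given beside its own.

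The members and lists were chosen with earlier results of these data known. Named genes are the members, TLX1 and the 5 nearest to GSTP1 among genes of at least 10 CPM. Further names come from up to 4 passing genes per list and comparison (with the block where none passed without it). Only some of these are named here, and no rule fixed which. TLX3, NFE2L2, KEAP1, the marker genes, the targets other than ABCC5, NAMPT and SLC7A11, PGAM5, RBX1 and HSPB1 were named after their values were seen. Alternatives were RLE factors, library size alone, other filters, DESeq2 1.42.0, limma-voom (limma 3.58.1), summed strand columns, the block, only the groups compared and left-out libraries. The block together with a left-out replicate number was added after seeing the data. At 58305492 to 99524663 gene counts per library, counting error is small beside the spread between libraries; GSTT1 was not analysed here, and 1 further gene of the lists is not reported here and is left out of their counts.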

Additional observations from a re-analysis of the deposited data

How the results depend on the processing

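The count of members called in siRNA1 against NTC (1 in the reported fit) was 0 with only the 2 groups compared and ranged from 0 to 1 over left-out libraries; the cause was not tested, beyond there being fewer samples. GSR was higher under all 24 alternatives (log2 0.41 to 0.57) but missed the threshold in 9 of them, at adjusted p up to 0.346. The replicate block, with the numbers taken as pairing the samples, changed the call of no member in siRNA1 against NTC or siRNA1 against siRNA2; in siRNA2 against NTC GSTP1 passes with the block alone, which is how it was chosen. In siRNA1 against siRNA2 the members' count of 0 became 1 (GCLM, log2 -0.27, edgeR adjusted p = 0.0491) with the replicate block and without number 2. That setting called 9.29% of all tested genes (1718). For the replicate number the count of 3 ranged from 1 to 4 over left-out libraries, where the share of all tested genes ranged from 24.4% to 37.5%. The wider lists' count in siRNA1 against NTC (3) was 1 with library size alone, 5 without a filter beyond 1 count, 7 with DESeq2, 25 with the replicate block, 16, 19 and 21 with the block and without number 1, 2 or 3, and 0 to 3 over left-out libraries. In siRNA1 against siRNA2 (4) it was 10 without the filter, 8 with DESeq2, 27 with the block, 16, 29 and 16 with the block and without number 1, 2 or 3, 1 with only the 2 groups compared, and 0 to 4 over left-out libraries. The members' median log2 in siRNA2 against NTC (0.0142) ranged from -0.0290 to 0.0278 over single left-out libraries, was -0.0538 without number 2, and was -0.0565 with the block and without number 2. Over all genes, 238 calls in siRNA1 against NTC became 553 with DESeq2, 590 without the filter and 2117 with the block. The 201 in siRNA1 against siRNA2 became 522, 557, 1958 and, with only those groups, 117. The 0 in siRNA2 against NTC became 4, 15 and 28.

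The differences that changed sign in the comparisons with siRNA1 did not pass in any setting, and all changes came from left-out libraries, where fewer samples enter. In siRNA1 against NTC they were GSTP1 (0.00618, and 0.00778 with the block, without number 3), GPX1 (-0.0122 and, with the block, -0.0144, without number 2) and TXNRD1 (-0.0509, -0.000998 and -0.0293 without NTC replicate 2, siRNA1 replicate 1 or siRNA1 replicate 3, in a range up to 0.0755). In siRNA1 against siRNA2 they were GSTO1 (-0.0535 to 0.130 over single libraries, -0.0340 and -0.0116 without number 1 or 2, -0.0268 and -0.00524 with the block), GPX1 (-0.0831 to 0.144, and -0.0515 and, with the block, -0.0504 without number 3) and GPX4 (-0.0626 to 0.196). In siRNA2 against NTC, given without a test, 6 members took both signs over the alternatives: GPX4 (-0.131 to 0.178), GPX1 (-0.131 to 0.148), TXNRD1 (-0.125 to 0.0311), GSTK1 (-0.0630 to 0.0972), GCLC (-0.0611 to 0.0322) and TXN (-0.00215 to 0.100).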

Other observations

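Across the 162 tested redox genes outside the 10, the replicate number passed for 67 (41.4%, beside 35.8% of all tested genes), with the label in the model. RRM2, the small subunit of ribonucleotide reductase that takes electrons from thioredoxin and glutaredoxin, averaged 543, 272 and 366 CPM in numbers 1, 2 and 3 (edgeR adjusted p = 6.72e-10). PRDX1, a peroxiredoxin that thioredoxin regenerates, averaged 167, 128 and 125 CPM (edgeR adjusted p = 0.000127), and MSRB3, a methionine sulfoxide reductase, 21.3, 12.1 and 11.3 CPM (edgeR adjusted p = 9.93e-09). AKR1C3, an aldo-keto reductase, went the other way with 3.89, 5.42 and 10.6 CPM (edgeR adjusted p = 3.19e-10). GSS, which completes glutathione after the ligase step, averaged 56.9, 46.4 and 51.0 CPM (edgeR adjusted p = 0.00638).

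In the list of cystine and glycine supply 7 of 8 tested genes (87.5%) passed for the number, and in that of thioredoxin and glutaredoxin genes 16 of 30 (53.3%). The shares were 52.4% for NRF2 targets, 50% for NRF2 regulators, 46.2% for glutathione synthesis and recycling, 43.8% for other selenoproteins and 33.3% for peroxidases, dismutases and catalase. Lower shares stood in other transferases (27.3%), ferroptosis genes (25%), NADPH supply (23.5%) and selenocysteine synthesis and insertion (18.2%). Among the members 3 of 10 did, and both GSR and GSTP1 were outside those 3. The labels do not say what the numbers stand for, and whether a shared culture, day or handling lies behind them was not tested.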
